A study of Mus musculus with 24 samples.

Results

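The genes described here were at least 2-fold higher in cells carrying the HEA mutant of MycER than in empty-vector cells, while their level in cells with WT MycER was close to that of the empty vector. The rule used log2(RPKM + 0.5), where RPKM is the read count scaled by gene length and library size. A gene had to reach 1 RPKM in 3 or more libraries. It was taken if its HEA mean exceeded the empty-vector mean by at least 1 (log2) at both 4 h and 8 h, and if its WT mean lay within 0.3 of the empty vector at both times. Of 21671 genes, 12268 passed the filter on low values, 349 met the HEA criterion and 99 met the WT criterion too. The rule also left out 12 genes by name, 4 of which (Hpse, Engase, Frat1 and Peli3) meet these values, so 95 genes remained. These HEA, WT and empty-vector (EV) levels chose the genes, so the differences of HEA and of WT from EV are given as a description, with no test. The same holds for the change of HEA, WT and EV levels between the times, which the rule limits. The RA libraries counted in the filter on low values but took no part in the HEA and WT criteria, and RA is tested.

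The cells were 3T9, an immortalised mouse fibroblast line, infected with MycER HEA, MycER RA, MycER WT or the empty vector. Every group, the EV cells included, was kept in OHT (4-hydroxytamoxifen) for 8 h or 4 h, and each of the 8 groups holds 3 RNA-seq libraries. In MycER, Myc is fused to the part of the oestrogen receptor that binds hormone, so that OHT switches it on. Myc averaged 49.5 ± 5.4 RPKM at 8 h and 55.7 ± 11 RPKM at 4 h in HEA cells, 63.1 ± 4.4 and 60.3 ± 4.1 RPKM in RA cells, and 38.8 ± 9.0 and 40.9 ± 10 RPKM in WT cells, against 58.2 ± 1.9 and 57.2 ± 4.7 RPKM in EV cells (SD, n = 3 each). The WT libraries, at most 47.1 RPKM, thus lay below all RA and EV libraries and overlapped with the HEA libraries at 8 h. These values do not separate reads of the construct from those of the cells' own Myc, and the part of this difference in the results was not tested. The labels do not say whether the lines were clones or pools or whether the libraries of a group came from separate cultures.

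Myc is a basic helix-loop-helix transcription factor that pairs with Max and binds DNA, preferring the E-box CACGTG. As background from the study's field, the HEA mutant replaces residues that read the bases of the E-box, and the RA mutant replaces arginines that hold the DNA backbone. The series title names the purpose, which is to separate non-specific from sequence-specific DNA binding in gene regulation by Myc.

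The library totals recovered from the RPKM values ran from 9.82 to 12.8 M reads. Esr1, the oestrogen receptor gene that supplied a stretch of each construct, lay between 9.04 and 13.7 RPKM in all MycER libraries and between 0.0990 and 0.385 RPKM in the EV libraries, so it separates construct from vector but not one form from another. The fibroblast markers Vim and Col1a2 stood at 151 ± 2.9 and 98.0 ± 5.5 RPKM in HEA cells at 8 h (SD, n = 3). Epcam and Cldn3 (epithelium), C1qa and C1qb (macrophages) and Myod1 (muscle) were at 0 in every library, but other markers of these cell types were expressed. At 8 h the macrophage markers summed to 19.9 to 22.8 RPKM in HEA libraries and 23.1 to 25.8 RPKM in EV libraries. Cd68 stood at 9.26 ± 0.69 and Cd14 at 10.9 ± 2.3 RPKM in HEA cells. The fibroblast marker Dcn was low, at 1.04 ± 0.29 RPKM in HEA cells and 0.177 ± 0.085 RPKM in EV cells at 8 h. Replicate 3 of WT at 8 h, replicate 3 of WT at 4 h and replicate 2 of EV at 4 h stood apart: each differed from both other libraries of its group by a chi-square of at least 13.2 per degree of freedom. Without these 3 libraries the rule found 95 genes, of which 74 are the same.

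Short stretches of promoter are shown first, since the mutant form concerns which letters of DNA Myc reads. RefSeq windows from 250 bases before to 50 after the gene start (mouse build GRCm38.p6, while the files' own build is mm9) were matched by symbol for 69 of the 95 genes, in 94 windows. Every motif of the form NACGTN was searched on both strands, where N is any base, so that a given ACGT falls under just 1 motif. CACGTC, which differs from the E-box in its last letter and reads GACGTG on the other strand, was in the windows of 12 of the 69 genes (17.4%), against 11.1% of the 9514 tested genes with a window. It had the highest share in the 69 genes of all the motifs searched. The sites below run 5′ to 3′ along the gene's strand, 1 for each of the 12 genes in the order of their HEA rise, with the motif in capitals.
Sema4g, chr19:44989307-44989336, plus strand: ggccgcgagccgCACGTCgctgtctctatg
Fndc5, chr4:129136882-129136911, plus strand: ccccaggcgcccGACGTGgacgcggccgct
Tmem56, chr3:121263352-121263381, minus strand: ttggccgtggcaGACGTGgcagaaagaaaa
Lancl3, chrX:9199777-9199806, plus strand: atccgtgccctgCACGTCccaggccttctg
Notch3, chr17:32167059-32167088, minus strand: ctggatacctgtCACGTCacgcaggttaag
Bend4, chr5:67428018-67428047, minus strand: ccgctgccgcctCACGTCcacagccgagag
Gm10584, chr7:132315499-132315528, plus strand: actagaggtgccCACGTCcagccaccagta
Pcx, chr19:4510319-4510348, plus strand: aggggcggagtcGACGTGaggcgccaaggc
Snx21, chr2:164785917-164785946, plus strand: gccggcctcccgCACGTCcccagcggccgc
Fbln1, chr15:85205885-85205914, plus strand: gtaggtgggtggCACGTCtctgagctttgc
P3h1, chr4:119233785-119233814, plus strand: gcgctctttcagGACGTGggattgccacgt
Rgmb, chr17:15831427-15831456, minus strand: accctttctctcGACGTGaagccaagtcat

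The E-box itself was in the windows of 4 of the 69 genes (5.80%), against 11.8% of all tested genes with a window. Tmem56, Pcx and Fbln1 also hold a CACGTC, and Tbc1d24 does not. Their E-boxes are shown in capitals below, cut short where the window ends.
Tmem56, chr3:121263430-121263459, minus strand: gcctcttctacaCACGTGcctcctagccgg
Pcx, chr19:4510222-4510241, plus strand: ccCACGTGaggctttcaaga
Tbc1d24, chr17:24205794-24205812, minus strand: cCACGTGtgaccggaccag
Fbln1, chr15:85205856-85205885, plus strand: ttagacacttttCACGTGactttctgcctg

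For comparison, the windows of genes at least 2-fold higher in WT cells at both times held the E-box in 23.0% and CACGTC in 13.1% of genes with a window. Those of the other genes raised in HEA cells, the 95 left aside, held the E-box in 8.51% and CACGTC in 18.6%. Those of genes at least 2-fold lower in HEA cells at both times held the E-box in 15.4% and CACGTC in 5.88%. GACGTC was in 11.6% of the 69 genes and in 8.94% of all tested genes with a window. Of the remaining NACGTN motifs, only TACGTA had a higher share in the 69 genes (1.45% against 1.16%). The others had a lower share, such as AACGTC (2.90% against 6.18%) and GACGTA (2.90% against 5.46%). The mean GC content of the windows was 61.4% for the 95 genes and 60.8% for all tested genes. These shares are descriptions without a test, and a match says nothing of binding. Among the genes with a window, the 2 whose level differed most between HEA and EV cells were Grb14 and Sema4g, and their whole windows follow, with the letters around any ACGT in capitals. The Grb14 window holds a single such site, TACGTC, which is GACGTA read on the other strand. The Sema4g window holds a single CACGTC.
Grb14, chr2:65022717-65023016, minus strand: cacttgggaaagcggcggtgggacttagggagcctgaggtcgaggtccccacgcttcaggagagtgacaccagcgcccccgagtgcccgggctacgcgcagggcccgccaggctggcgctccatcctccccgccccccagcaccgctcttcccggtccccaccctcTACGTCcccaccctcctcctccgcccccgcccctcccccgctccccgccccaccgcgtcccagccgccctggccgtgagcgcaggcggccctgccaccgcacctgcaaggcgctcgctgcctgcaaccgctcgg
Sema4g, chr19:44989094-44989393, plus strand: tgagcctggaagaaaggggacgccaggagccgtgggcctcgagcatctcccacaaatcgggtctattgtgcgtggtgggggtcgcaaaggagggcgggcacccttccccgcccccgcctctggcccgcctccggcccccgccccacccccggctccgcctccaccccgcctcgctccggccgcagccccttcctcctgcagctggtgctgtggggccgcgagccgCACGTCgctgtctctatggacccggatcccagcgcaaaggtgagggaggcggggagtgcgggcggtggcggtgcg

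Across the 95 genes the median HEA minus EV difference was 1.34 at 8 h (interquartile range 1.16 to 1.71, highest 2.77) and 1.31 at 4 h (1.15 to 1.64, highest 2.38), all on the scale of log2(RPKM + 0.5). The median over all 12268 tested genes was -0.05 at 8 h and -0.06 at 4 h. In single libraries, the median of the 95 genes set against the EV mean of the same time was 1.24 to 1.53 in the HEA libraries, 0.02 to 0.25 in the RA libraries, -0.10 to 0.02 in the WT libraries and -0.02 to 0.04 in the EV libraries. By this median each of the 6 HEA libraries lay apart from those of the other 3 kinds of cells, of which the rule bounded WT and EV but not RA. All 6 HEA libraries lay above all 18 other libraries for 87 of the 95 genes, which is true of 7.67% of all tested genes. Limma called 94 of the 95 higher in HEA at 8 h and 93 at 4 h, where 20.2% and 17.7% of all tested genes were called higher. Nothing is read from these counts or from the 87 genes, because the rule used the same HEA, WT and EV values. Of the libraries behind the 87, only those of RA were not bounded by the rule. These are bulk samples, so a change in the share of cells that express a gene and a change in RNA per cell cannot be told apart.

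Most of these genes were weakly expressed in EV cells. Their median EV level was 2.87 RPKM, against 16.8 RPKM over all tested genes, and 35 of them (36.8%) were under 1 RPKM in EV, against 5.48% of all tested genes. Other genes raised in HEA cells were low in EV too: the median was 2.31 RPKM (23.1% under 1) for 26 genes at least 2-fold higher in both HEA and WT at both times, and 4.24 RPKM (9.09% under 1) for 33 genes raised so in HEA but more than 0.3 lower in WT. The highest EV level among them was 34.2 RPKM, of Dgat1. The filter matters here: 67 of the 95 reached 1 RPKM in at least 3 libraries other than HEA, while 28 passed the filter only through their HEA libraries and had to differ. On the log2(RPKM + 0.5) scale the change of such low genes is understated. The median gene had a mean of 244 reads in the HEA libraries, and 5 genes had under 10: Nupr1l (9.67), 1700015E13Rik (7.17), Scgb1c1 (6.0), Mir669m-2 (2.83) and Mir1936 (0.833). For Mir669m-2 and Mir1936 no fold is given, because HEA itself was under the 3 reads that a count of 0 allows. Scgb1c1, 1700015E13Rik, Mir669m-2 and Mir1936 are also among the 8 genes whose HEA libraries overlapped with another library, together with Mir599, H2-M10.2, Sned1 and Carf.

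**Figure D1:**
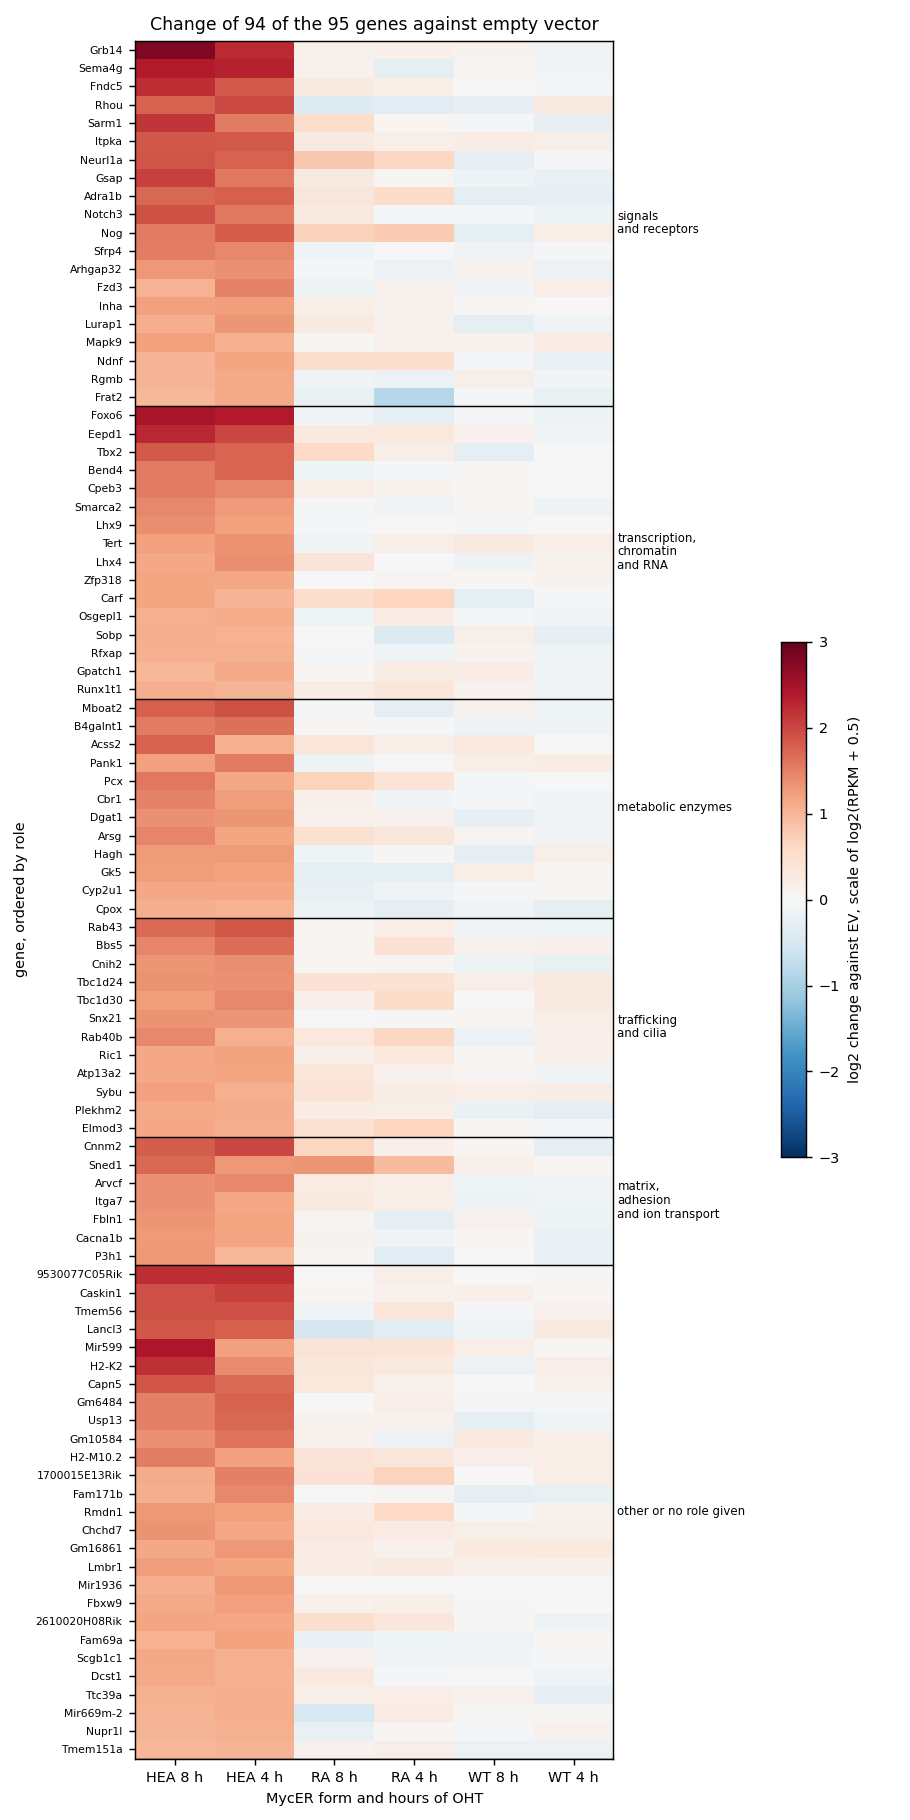
Difference from EV for 94 of the 95 genes (1 line per gene, grouped by role) in HEA, RA and WT cells at 8 h and 4 h, as the difference of 3-library means of log2(RPKM + 0.5), with red for higher and blue for lower than EV. Both HEA columns are red throughout (1.00 to 2.77), both WT columns lie within 0.3 of 0, and in the RA columns Sned1 is the reddest (1.33 at 8 h) and Frat2 the bluest (-0.86 at 4 h).

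The genes are grouped below by roles assigned for this description. The share of each role over all tested genes was not counted, so nothing is read from the size of a group. Genes of signalling numbered 20 of the 95, with a median HEA minus EV difference of 1.64 at 8 h and 1.57 at 4 h. Grb14, an adaptor protein that binds the insulin receptor and dampens its signal, differed most. Grb14 had 2.93, 3.95 and 2.82 RPKM at 8 h and 2.25, 2.19 and 1.79 RPKM at 4 h in HEA cells, and 0.0882, 0.130 and 0.0610 RPKM at 8 h and 0.150, 0.0703 and 0.0917 RPKM at 4 h in RA cells. It had 0.0431, 0.128 and 0.0716 RPKM at 8 h and 0.0228, 0 and 0 RPKM at 4 h in WT cells, against 0.0212, 0.0193 and 0.0864 RPKM at 8 h and 0.0608, 0.0235 and 0.0424 RPKM at 4 h in EV cells. All 6 HEA libraries are at or above 1.79 RPKM, all others are at or below 0.150 RPKM, and the gene is almost silent without HEA. Its HEA minus EV difference was 2.77 ± 0.14 at 8 h and 2.24 ± 0.14 at 4 h (log2 ± SE).

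Sema4g encodes a semaphorin, a membrane-bound guidance signal. Sema4g had 9.28, 6.82 and 6.77 RPKM at 8 h and 7.27, 8.63 and 7.76 RPKM at 4 h in HEA cells, and 1.19, 1.26 and 1.09 RPKM at 8 h and 0.926, 0.941 and 0.836 RPKM at 4 h in RA cells. It had 1.32, 1.24 and 0.891 RPKM at 8 h and 1.04, 1.41 and 0.849 RPKM at 4 h in WT cells, against 1.06, 1.00 and 1.08 RPKM at 8 h and 1.29, 1.27 and 1.01 RPKM at 4 h in EV cells. The HEA libraries do not overlap with any other group, and the RA, WT and EV libraries overlap with each other around 1 RPKM. Fndc5, the precursor of the secreted peptide irisin, had 2.02, 2.68 and 2.64 RPKM at 8 h and 1.88, 2.29 and 1.18 RPKM at 4 h in HEA cells, against 0.0936 to 0.181 RPKM in the 6 EV libraries. Rhou, a small GTPase that acts on the cytoskeleton, had 40.1, 43.2 and 43.1 RPKM at 8 h and 33.9, 35.6 and 38.7 RPKM at 4 h in HEA cells, against 7.93 to 13.7 RPKM in the 6 EV libraries. Rhou differs from Fndc5 in its starting level, being well expressed in EV cells, yet in both no HEA library came near an EV library. Sarm1, an NAD-cleaving enzyme known from axon degeneration, had 2.86, 3.32 and 2.78 RPKM at 8 h and 2.13, 1.87 and 1.77 RPKM at 4 h in HEA cells, against 0.254 to 0.365 RPKM in the 6 EV libraries.

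Several members belong to developmental signalling systems with receptors, ligands, antagonists and cofactors. Among receptors, Notch3, a receptor for membrane-bound ligands on neighbouring cells, had 2.03, 1.21 and 1.72 RPKM at 8 h and 0.867, 2.56 and 1.18 RPKM at 4 h in HEA cells, against 0.0565 to 0.197 RPKM in the 6 EV libraries. Its HEA libraries spread widely but stayed above all the others. Fzd3, a Wnt receptor, averaged 17.3 ± 1.6 RPKM in HEA cells and 8.08 ± 0.19 RPKM in EV cells at 8 h (SD, n = 3 each). Adra1b, an alpha-1 adrenergic receptor, averaged 3.37 ± 0.69 RPKM in HEA cells and 0.675 ± 0.17 RPKM in EV cells at 8 h. Secreted antagonists were present for both the BMP and the Wnt pathways. Nog, which binds and blocks BMP ligands, had 6.24, 5.91 and 4.37 RPKM at 8 h and 5.33, 7.36 and 4.40 RPKM at 4 h in HEA cells, against 1.19 to 1.69 RPKM in the 6 EV libraries. Sfrp4, a secreted Wnt antagonist, averaged 1.39 ± 0.17 RPKM in HEA cells and 0.149 ± 0.047 RPKM in EV cells at 8 h. Other members of these systems are Rgmb, a BMP co-receptor, Inha, the alpha subunit of inhibin, Neurl1a, a ubiquitin ligase that acts on Notch ligands, Frat2, an inhibitor of the kinase that marks beta-catenin for destruction, and Mapk9, a JNK kinase. Their HEA minus EV differences at 8 h were 1.02 for Rgmb, 1.22 for Inha, 1.89 for Neurl1a, 1.00 for Frat2 and 1.22 for Mapk9. The group thus runs from genes near silence in EV cells (Grb14, Notch3) to steadily expressed ones (Mapk9, 13.6 to 18.4 RPKM in the EV libraries).

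**Figure D2:**
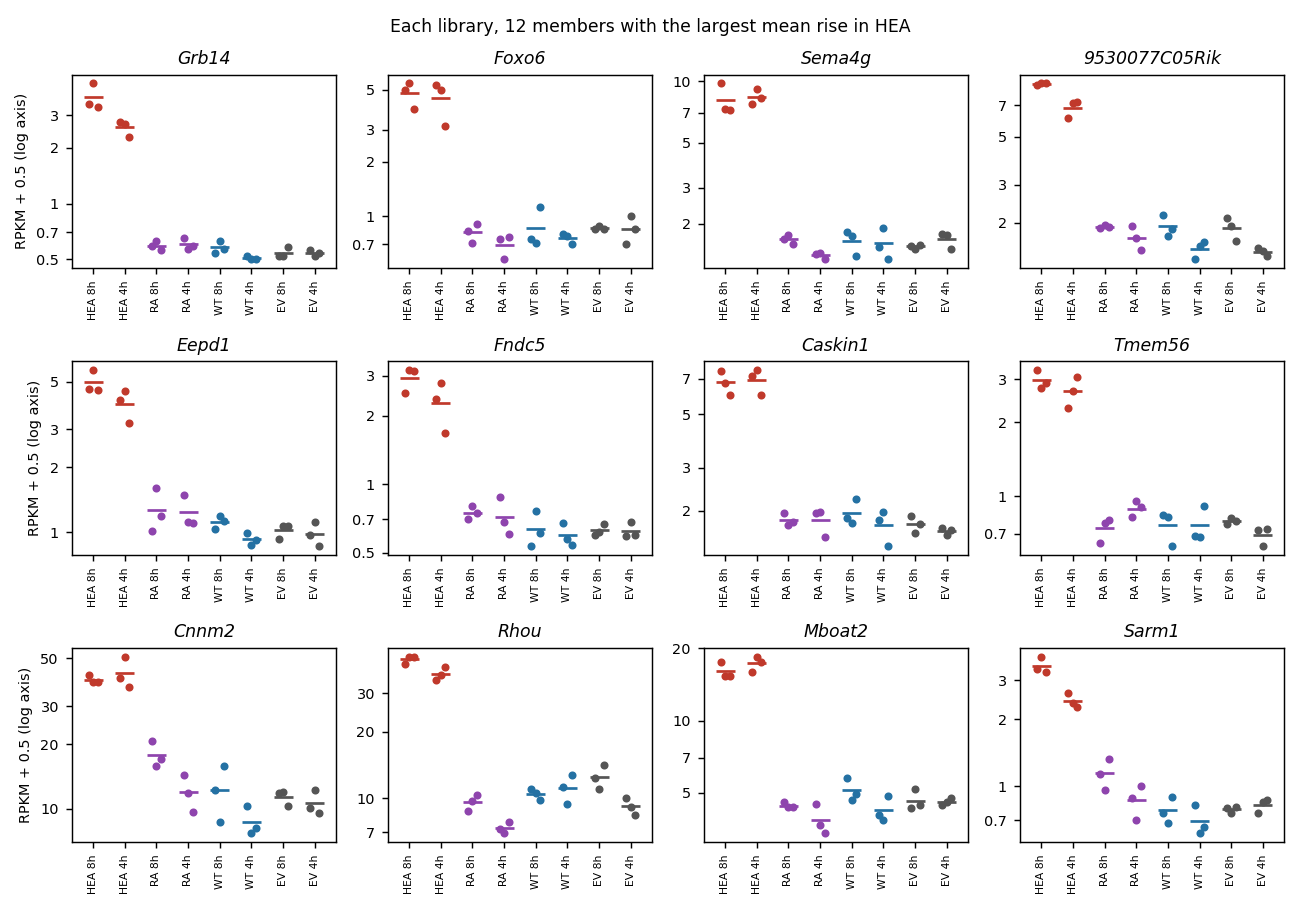
Level in each library, as RPKM + 0.5 on a log axis, of the 12 genes with the largest mean HEA minus EV difference, in HEA, RA, WT and EV cells at 8 h and 4 h (points are libraries, lines are the means of 3). In all 12 panels the 6 HEA libraries lie above the 18 others, with Grb14 from 1.79 to 3.95 RPKM in HEA cells and Cnnm2 from 36.2 to 50.2 RPKM.

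Regulators of transcription, chromatin and RNA made up 16 genes, with median HEA minus EV differences of 1.21 at 8 h and 1.26 at 4 h. Foxo6, a forkhead transcription factor, stood at the top. Foxo6 had 4.51, 4.93 and 3.40 RPKM at 8 h and 4.84, 4.52 and 2.66 RPKM at 4 h in HEA cells, and 0.326, 0.213 and 0.401 RPKM at 8 h and 0.247, 0.0771 and 0.264 RPKM at 4 h in RA cells. It had 0.248, 0.210 and 0.627 RPKM at 8 h and 0.30, 0.278 and 0.201 RPKM at 4 h in WT cells, against 0.348, 0.381 and 0.355 RPKM at 8 h and 0.200, 0.503 and 0.349 RPKM at 4 h in EV cells. Replicate 3 was the lowest HEA library at both times, yet it stayed far above every library of the other forms. Eepd1, a nuclease domain protein known from the repair of stalled replication forks, had 4.12, 5.14 and 4.09 RPKM at 8 h and 3.59, 4.03 and 2.72 RPKM at 4 h in HEA cells, against 0.363 to 0.622 RPKM in the 6 EV libraries. Smarca2, an ATPase of the SWI/SNF chromatin remodelling complex, had 16, 16.9 and 16.5 RPKM at 8 h and 12.7, 9.64 and 12 RPKM at 4 h in HEA cells, against 3.76 to 6.01 RPKM in the 6 EV libraries. Tert, the protein subunit of telomerase, had 3.57, 2.69 and 3.06 RPKM at 8 h and 2.56, 3.58 and 2.41 RPKM at 4 h in HEA cells, against 0.681 to 1.13 RPKM in the 6 EV libraries. Tert is a gene that Myc is known to regulate through E-boxes, and in WT cells it had 1.36, 1.19 and 1.44 RPKM at 8 h and 1.26, 1.17 and 0.697 RPKM at 4 h, which overlaps with EV at 4 h and lies above it at 8 h. The group also holds the developmental factors Tbx2, Lhx4 and Lhx9, the corepressor Runx1t1, the RNA-binding translational regulator Cpeb3, and Rfxap, a subunit of the complex that drives MHC class II genes. Tbx2 averaged 2.54 ± 0.15 RPKM in HEA cells and 0.358 ± 0.081 RPKM in EV cells at 8 h, while Rfxap, at the other end, averaged 29.6 ± 3.6 RPKM in HEA cells and 13.8 ± 0.54 RPKM in EV cells.

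Metabolic enzymes made up 12 genes, with median HEA minus EV differences of 1.41 at 8 h and 1.22 at 4 h. Lipid enzymes among them are Mboat2, which reacylates lysophospholipids, and Dgat1, which makes triglycerides. Mboat2 had 17.0, 14.9 and 14.8 RPKM at 8 h and 15.4, 17.9 and 17.1 RPKM at 4 h in HEA cells, against 3.80 to 4.67 RPKM in the 6 EV libraries. Dgat1 had 87.2, 83.1 and 82.9 RPKM at 8 h and 85.9, 111 and 76.2 RPKM at 4 h in HEA cells, against 31.3 to 40.4 RPKM in the 6 EV libraries. Both genes were expressed in EV cells and separated cleanly, Dgat1 at the highest level of the whole set. Acss2 makes acetyl-CoA from acetate, Pcx makes oxaloacetate from pyruvate and Pank1 performs the first step of coenzyme A synthesis. Acss2 had 2.89, 2.73 and 2.62 RPKM at 8 h and 1.82, 1.59 and 1.5 RPKM at 4 h in HEA cells, against 0.424 to 0.554 RPKM in the 6 EV libraries. Pcx had 36.3, 35.8 and 37.0 RPKM at 8 h and 24.2, 29.3 and 27.3 RPKM at 4 h in HEA cells, against 11.2 to 12.5 RPKM in the 6 EV libraries. Pank1 had 22.5, 24.1 and 22 RPKM at 8 h and 22.3, 22.4 and 20.9 RPKM at 4 h in HEA cells, against 7.11 to 9.84 RPKM in the 6 EV libraries. The remaining enzymes include Cpox of heme synthesis, B4galnt1 of ganglioside synthesis, the carbonyl reductase Cbr1, and Hagh of the glyoxalase pathway. Cbr1 and its neighbour Cbr3 are close copies, so reads of one may have been counted for the other.

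Genes of membrane trafficking and cilia numbered 13, with median HEA minus EV differences of 1.33 at 8 h and 1.32 at 4 h. Rab43, a small GTPase of the Golgi, had 30.4, 32.2 and 32.2 RPKM at 8 h and 29.6, 30.4 and 29.7 RPKM at 4 h in HEA cells, against 6.99 to 10.4 RPKM in the 6 EV libraries. Bbs5, a subunit of the BBSome that carries proteins in cilia, had 19.3, 19.3 and 16.2 RPKM at 8 h and 15.2, 15.4 and 17.4 RPKM at 4 h in HEA cells, against 3.38 to 6.84 RPKM in the 6 EV libraries. For both genes the HEA libraries lay above all the others. Tbc1d24 and Tbc1d30 carry Rab GTPase-activating domains, Atp13a2 is a lysosomal transport ATPase and Snx21 a sorting nexin.

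Matrix, adhesion and ion transport genes numbered 7, with medians of 1.36 at 8 h and 1.18 at 4 h. Cnnm2, a membrane protein of magnesium transport, had 41.3, 38.4 and 38.3 RPKM at 8 h and 40.2, 50.2 and 36.2 RPKM at 4 h in HEA cells, against 9.08 to 11.7 RPKM in the 6 EV libraries. P3h1, which hydroxylates prolines in collagen, had 70.6, 69.0 and 68.0 RPKM at 8 h and 65.9, 75.7 and 61.8 RPKM at 4 h in HEA cells, against 26.8 to 37.6 RPKM in the 6 EV libraries. Fbln1, a matrix glycoprotein, had 8.54, 8.00 and 7.85 RPKM at 8 h and 9.12, 7.72 and 8.05 RPKM at 4 h in HEA cells, against 2.76 to 4.12 RPKM in the 6 EV libraries. For all 3 genes the HEA libraries exceeded every EV library by a wide margin. Itga7 (a laminin-binding integrin), Arvcf (a catenin), Cacna1b (a calcium channel) and Sned1 (a matrix protein) complete the group. The other 27 genes were given none of these roles, with medians of 1.25 at 8 h and 1.24 at 4 h. Among them, 9530077C05Rik had 8.15, 8.32 and 8.32 RPKM at 8 h and 5.6, 6.63 and 6.71 RPKM at 4 h in HEA cells, against 0.897 to 1.61 RPKM in the 6 EV libraries, Caskin1, a synaptic scaffold protein, had 7.01, 6.25 and 5.52 RPKM at 8 h and 6.69, 7.09 and 5.49 RPKM at 4 h in HEA cells, against 1.09 to 1.4 RPKM in the 6 EV libraries, and Tmem56 (Tlcd4 in RefSeq) had 2.77, 2.27 and 2.40 RPKM at 8 h and 1.80, 2.19 and 2.56 RPKM at 4 h in HEA cells, against 0.123 to 0.314 RPKM in the 6 EV libraries. This group also holds the microRNA genes Mir599, Mir669m-2 and Mir1936 and the class I MHC genes H2-K2 and H2-M10.2. Reads of such short, overlapping or multi-copy genes could not be told apart from those of hosts, neighbours or copies.

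The set has no natural edge. Just inside the limits lay Fam171b (WT minus EV at 8 h of -0.299), Gm16861 (0.298), Acss2 (0.297) and Gpatch1 (HEA minus EV at 8 h of 1.002). Just outside lay Hivep2 (WT minus EV at 4 h of 0.302), Mtss1 (HEA minus EV at 4 h of 0.991), Cda (WT minus EV at 8 h of -0.31) and Hexdc (-0.313).

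The RA libraries show how the same genes stood in the other DNA-binding mutant. For the 28 genes that passed the filter only through HEA, RA levels were kept low by selection, and these genes are not counted apart. In RA against EV, 7 of the 95 genes (7.37%) were called higher and none lower at 8 h (limma, adjusted p under 0.05). At 4 h 8 (8.42%) were called higher and 2 (2.11%) lower. Over all tested genes 1.49% were called higher and 1.29% lower at 8 h, and 2.58% higher and 2.73% lower at 4 h. After quantile normalisation the calls were 4 higher and 3 lower at 8 h, and 6 higher and 4 lower at 4 h. The median RA minus EV difference of the 95 genes was 0.14 at 8 h and 0.13 at 4 h, against 0.00 and 0.02 over all tested genes, and it was above 0 for 69 genes at 8 h and 66 at 4 h. The 3 RA libraries lay above all 3 EV libraries for 28 genes at 8 h and 24 at 4 h, where 18.2% and 14.3% of all tested genes did so, and below them for 8 and 9 genes, where 17.8% and 10.8% did. The EV libraries here are the same ones that the rule used. Set against WT instead, whose libraries the rule used too, 19 genes were higher and 2 lower in RA at 8 h, and 15 higher and 5 lower at 4 h, where 24.4% and 17.3% (8 h) and 19.9% and 15.0% (4 h) of all tested genes were called. The medians of the RA minus WT difference were 0.13 at both times, against 0.04 at 8 h and 0.05 at 4 h over all tested genes.

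The 5 genes higher in RA at both times were Sned1, Nog, Ndnf, Elmod3 and Tbc1d24. Sned1 had 2.89, 2.14 and 3.29 RPKM at 8 h and 2.30, 2.86 and 2.28 RPKM at 4 h in HEA cells, and 3.16, 1.60 and 1.4 RPKM at 8 h and 2.93, 1.49 and 1.27 RPKM at 4 h in RA cells. It had 0.457, 0.438 and 0.919 RPKM at 8 h and 0.996, 0.728 and 0.566 RPKM at 4 h in WT cells, against 0.435, 0.595 and 0.402 RPKM at 8 h and 0.716, 0.846 and 0.545 RPKM at 4 h in EV cells. RA replicate 1 reached the HEA range at both times, and the other RA libraries lay between HEA and EV. RA minus EV was 1.33 ± 0.25 at 8 h (adjusted p = 0.00770) and 0.94 ± 0.25 at 4 h (adjusted p = 0.0362). Without RA replicate 1 the adjusted p of Sned1 was 0.0656 at 8 h and 0.200 at 4 h. At 4 h it also missed the threshold without any of the other libraries of the comparison except RA replicate 3.

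Nog in RA cells had 2.57, 2.62 and 3.17 RPKM at 8 h and 2.52, 2.64 and 2.13 RPKM at 4 h, against 1.69, 1.59 and 1.31 RPKM at 8 h and 1.27, 1.22 and 1.19 RPKM at 4 h in EV cells. The RA libraries lay wholly between the EV and HEA libraries, with RA minus EV of 0.70 ± 0.16 at 8 h (adjusted p = 0.0242) and 0.76 ± 0.16 at 4 h (adjusted p = 0.00998). Ndnf, a secreted neurotrophic protein, had 9.0, 9.23 and 10.2 RPKM at 8 h and 8.94, 9.51 and 9.43 RPKM at 4 h in RA cells, against 6.33, 7.26 and 5.67 RPKM at 8 h and 6.13, 6.30 and 6.81 RPKM at 4 h in EV cells. Elmod3, a GTPase-activating protein, had 3.77, 4.18 and 4.22 RPKM at 8 h and 3.65, 3.61 and 3.98 RPKM at 4 h in RA cells, against 2.85, 2.67 and 2.91 RPKM at 8 h and 2.36, 1.80 and 2.60 RPKM at 4 h in EV cells. Tbc1d24 had 7.76, 7.25 and 7.16 RPKM at 8 h and 7.59, 7.10 and 6.46 RPKM at 4 h in RA cells, against 5.44, 5.41 and 5.19 RPKM at 8 h and 5.42, 4.52 and 5.37 RPKM at 4 h in EV cells. None of these RA groups overlapped with EV at the same time. The adjusted p values at 8 h were 0.0395 for Ndnf, 0.0468 for Elmod3 and 0.0115 for Tbc1d24, and at 4 h 0.0356 for Ndnf, 0.00610 for Elmod3 and 0.00778 for Tbc1d24. With 1 library left out, Nog, Ndnf and Elmod3 at 8 h and Ndnf at 4 h missed the threshold in most or all such fits, and Tbc1d24 at 8 h missed it without EV replicate 3 (0.0631) or RA replicate 1 (0.0786). In WT cells Tbc1d24 had 6.75, 6.13 and 5.83 RPKM at 8 h and 6.32, 6.82 and 5.94 RPKM at 4 h, above EV at both times. Its RA minus WT difference was 0.23 at 8 h and 0.14 at 4 h. Nog in WT cells lay above EV at 4 h but overlapped with it at 8 h. Ndnf in WT cells lay below EV at 4 h and overlapped at 8 h, and Elmod3 overlapped at both times.

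Called at 8 h alone were Pcx and 2610020H08Rik. Pcx had 20.8, 18.4 and 17.7 RPKM at 8 h and 17.2, 15.3 and 14.4 RPKM at 4 h in RA cells, against 12.5, 11.2 and 11.8 RPKM at 8 h and 11.2, 11.9 and 12.3 RPKM at 4 h in EV cells. The RA libraries were above EV at both times, by 0.66 ± 0.11 at 8 h (adjusted p = 0.00355) and 0.38 ± 0.11 at 4 h (adjusted p = 0.0511). 2610020H08Rik differed by 0.52 ± 0.14 at 8 h (adjusted p = 0.0482), with 8.08, 7.97 and 6.66 RPKM in RA cells, against 4.95, 5.74 and 4.70 RPKM in EV cells. At 4 h alone, Ric1, Rmdn1 and Carf were higher in RA. Ric1, part of a Golgi exchange factor complex, had 19.4, 17.6 and 18.1 RPKM in RA cells, against 15.5, 13.2 and 15.4 RPKM in EV cells (adjusted p = 0.0189). Rmdn1, a microtubule-associated protein, had 4.02, 3.29 and 3.24 RPKM in RA cells, against 2.50, 1.64 and 2.43 RPKM in EV cells (adjusted p = 0.0313). In Carf, a transcription factor of the calcium response, RA had 3.47, 3.09 and 2.22 RPKM, against 1.96, 1.41 and 1.68 RPKM in EV cells (adjusted p = 0.0417). Each of these RA groups lay above EV without overlap. In WT cells at 4 h Ric1 had 16.1, 16.3 and 16.7 RPKM, above EV too, while Rmdn1 and Carf overlapped with EV.

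Frat2 and Cpox went the other way at 4 h, lower in RA and higher in HEA. Frat2 had 6.20, 6.33 and 6.02 RPKM at 8 h and 8.06, 6.72 and 6.28 RPKM at 4 h in HEA cells, and 1.95, 2.50 and 2.63 RPKM at 8 h and 1.16, 1.22 and 1.77 RPKM at 4 h in RA cells. It had 2.74, 2.71 and 2.8 RPKM at 8 h and 2.64, 2.28 and 2.31 RPKM at 4 h in WT cells, against 3.10, 2.79 and 2.62 RPKM at 8 h and 2.93, 2.58 and 3.19 RPKM at 4 h in EV cells. The 3 RA libraries at 4 h are the lowest of all 24, with RA minus EV of -0.86 ± 0.13 (adjusted p = 0.00114). At 8 h the RA and EV libraries overlapped, with a difference of -0.23 ± 0.13 (adjusted p = 0.381). Cpox had 9.91, 10.1 and 9.72 RPKM in RA cells, against 12.2, 13.0 and 11.0 RPKM in EV cells at 4 h, a difference of -0.27 ± 0.077 (adjusted p = 0.0428). The Cpox call is weaker than that of Frat2: it missed the threshold in 5 of 6 fits with 1 library left out. The authors' deposited table gives Cpox an adjusted p of 0.102 at 4 h. Frat2 and its neighbour Frat1 are related copies, and reads may be shared between them.

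The RA calls rest on few libraries. Of the 10 calls at 4 h, 3 were made without EV replicate 2, 3 without RA replicate 1 and 4 without RA replicate 2. Of the 7 at 8 h, 1 was made without RA replicate 1, 2 without EV replicate 3, 3 without EV replicate 1, RA replicate 2 or RA replicate 3, and 4 without EV replicate 2. Frat2 and Elmod3 at 4 h and Pcx at 8 h were called whichever single library was left out. In the 6 such fits 2610020H08Rik at 8 h missed the threshold in 6. At 4 h Carf missed it in 4, Rmdn1 in 3 and Ric1 in 2. Tbc1d24 at 4 h missed the threshold without EV replicate 2 (adjusted p = 0.0633) or RA replicate 1 (0.0522), and Nog at 4 h without RA replicate 2 (0.0530). In a fit of the compared groups alone, 11 calls were made at 8 h and 0 at 4 h. The authors' deposited table, for the members with an adjusted p, lists 12 of 67 as higher and 3 as lower in RA at 8 h, where 7.65% and 8.16% of all its genes are listed so. For 4 h that table lists 7 of 68 as higher and 2 as lower, against 2.22% and 3.13% of all its genes. In the authors' deposited table Neurl1a (0.76) and Cnnm2 (0.57) are higher and Rhou (-0.34) is lower in RA at 8 h, and Sarm1 (0.39) is higher, each with an adjusted p under 0.05. Limma called none of the 4 at 8 h, with adjusted p of 0.0535 for Neurl1a, 0.0579 for Cnnm2, 0.0625 for Rhou and 0.0904 for Sarm1.

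**Figure D3:**
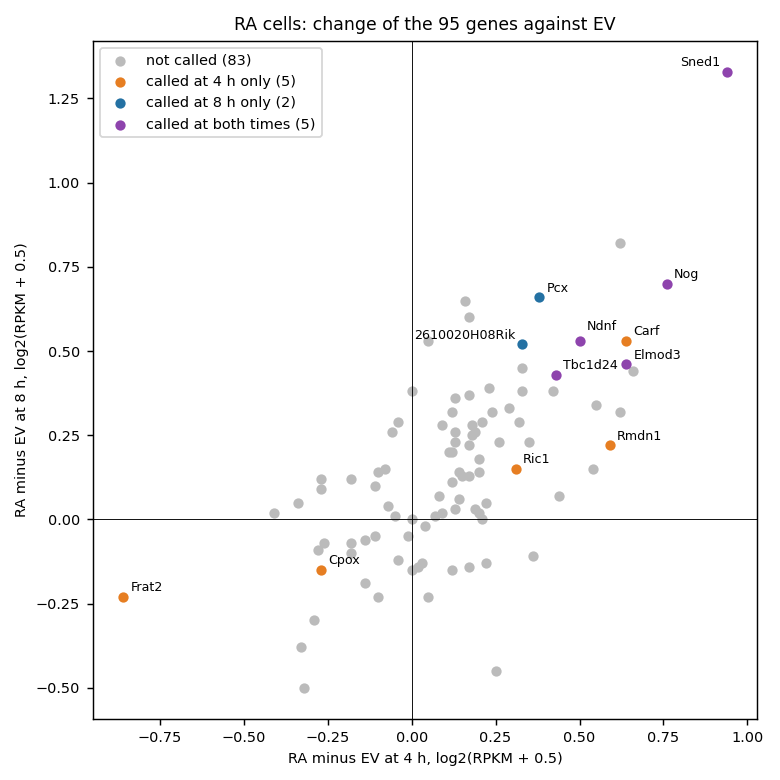
RA minus EV difference of each of the 95 genes at 4 h (horizontal) and 8 h (vertical), on the scale of log2(RPKM + 0.5), coloured by whether limma called it at an adjusted p under 0.05. Sned1 (0.94 at 4 h, 1.33 at 8 h) and Nog (0.76 and 0.70) lie at the upper right, Frat2 (-0.86 at 4 h) lies at the left, and 83 genes were called at neither time.

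Limma called none of the 12 genes with the largest HEA difference in RA against EV at either time. Of these, Grb14, Foxo6, Eepd1, Fndc5, Tmem56 and Sarm1 passed the filter on low values only through their HEA libraries. Their RA levels were therefore low by selection, and nothing is read from the absence of a call in them. Over all tested genes 1.49% were called higher and 1.29% lower at 8 h, and 2.58% and 2.73% at 4 h, so 0 of 12 is near that share. An unadjusted p under 0.05 was found for 3 of the 12 at 8 h and 3 at 4 h, and for 23.2% and 27.4% of the 95. Voom called 1 of the 12, Cnnm2, at 8 h and 0 at 4 h. The authors' deposited table lists Cnnm2, Rhou and Sarm1 as different at 8 h and none at 4 h, with an adjusted p for 7 of the 12. Of all its genes, 7.65% are listed as higher and 8.16% as lower at 8 h, and 2.22% and 3.13% at 4 h. Grb14 and Foxo6 differed between RA and EV by 0.13 ± 0.14 and -0.09 ± 0.21 at 8 h, with adjusted p of 0.678 and 0.872. For Sema4g the difference was 0.12 ± 0.15 (adjusted p = 0.721). A p above the threshold does not show that the levels were the same. Among the 33 genes raised in HEA and lowered in WT the median RA minus EV difference was 0.18 at 8 h and 0.17 at 4 h, and among the 26 raised in both HEA and WT it was -0.03 at 8 h and 0.03 at 4 h. Esr1, part of the constructs, is among the 26. All these differences share the EV libraries.

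Between the times, HEA, WT and EV levels are described without a test, since a gene whose HEA minus EV difference was under 1 at either time, or whose WT level left that of EV, could not be a member. The HEA minus EV difference at 8 h less that at 4 h had a median of 0.01 across the 95 genes (interquartile range -0.12 to 0.14), from -0.43 (Fzd3) to 1.20 (Mir599). The HEA level itself, 8 h less 4 h, had a median of 0.02 (interquartile range -0.11 to 0.20). Acss2 had 2.89, 2.73 and 2.62 RPKM at 8 h, against 1.82, 1.59 and 1.5 RPKM at 4 h in HEA cells, a difference of 0.61 ± 0.12. Pcx had 36.3, 35.8 and 37.0 RPKM at 8 h, against 24.2, 29.3 and 27.3 RPKM at 4 h in HEA cells, a difference of 0.43 ± 0.11. In neither gene did the times overlap, and the EV means of these genes differed by -0.09 for Acss2 and 0.00 for Pcx. Cbr1 had 38.7, 45.2 and 41.5 RPKM at 8 h, against 30.1, 22.4 and 30.8 RPKM at 4 h in HEA cells. Smarca2 had 16, 16.9 and 16.5 RPKM at 8 h, against 12.7, 9.64 and 12 RPKM at 4 h in HEA cells. In EV cells Cbr1 and Smarca2 differed between the times in the same direction, by 0.36 and 0.35. Grb14 differed by 0.53 ± 0.14 in HEA cells, its 8 h libraries lying above all 4 h libraries. The HEA minus EV difference was larger at 8 h by 0.70 ± 0.17 for Acss2, 0.44 ± 0.16 for Pcx, 0.77 ± 0.29 for H2-K2, 0.53 ± 0.20 for Grb14 and 0.59 ± 0.24 for Sarm1. For Pank1 and Fzd3 the same quantity was -0.33 ± 0.11 and -0.43 ± 0.21.

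**Figure D4:**
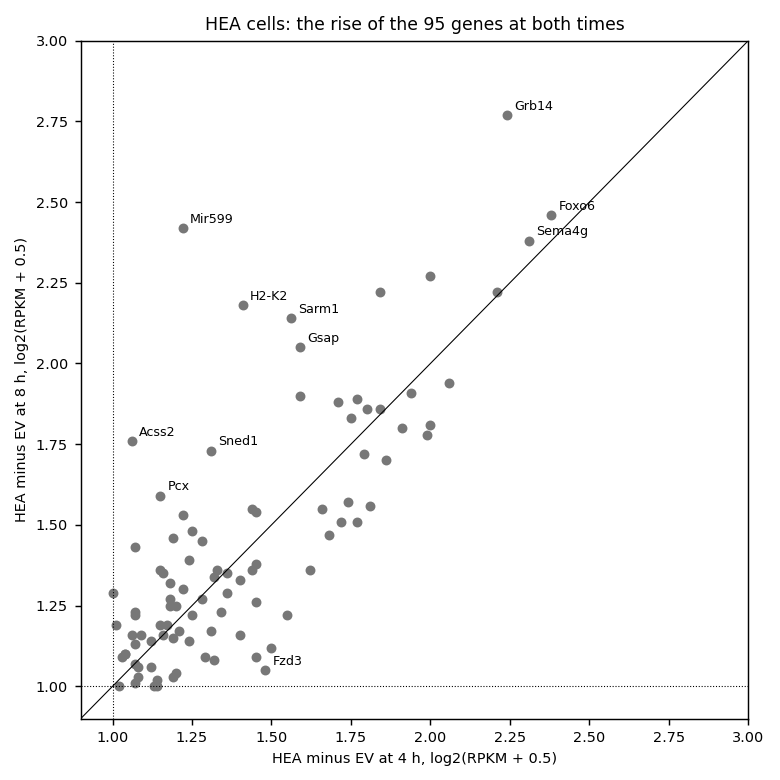
HEA minus EV difference of each of the 95 genes at 4 h (horizontal) and 8 h (vertical), on the scale of log2(RPKM + 0.5), with dotted lines at the limit of 1 that chose the genes and a solid line where both times are equal. Names are given for the 3 genes with the largest HEA difference and for those more than 0.4 above or below the solid line, among them Grb14 (2.24 at 4 h, 2.77 at 8 h) and Acss2 (1.06 and 1.76) over it and Fzd3 under it.

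The change between the times was tested in RA cells. There 0 of the 95 genes were called between 8 h and 4 h (0.220% of all tested genes), with 14 at an unadjusted p under 0.05 (9.87% of all tested genes) and 0 by voom. Frat2 was nearest, with 1.95, 2.50 and 2.63 RPKM at 8 h, against 1.16, 1.22 and 1.77 RPKM at 4 h in RA cells, a difference of 0.61 ± 0.13 (adjusted p = 0.0535). Without RA replicate 3 at 4 h, 1 gene was called.

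In WT cells the 8 h less 4 h difference of the 95 genes had a median of 0.02 (interquartile range -0.11 to 0.19), and in EV cells 0.01 (-0.10 to 0.15). Pank1 had 11.7, 10.3 and 10.8 RPKM at 8 h, against 8.58, 7.74 and 8.96 RPKM at 4 h in WT cells. In EV cells Pank1 had 9.68, 9.84 and 9.09 RPKM at 8 h, against 7.14, 7.18 and 7.11 RPKM at 4 h. Gpatch1, an RNA-processing protein, had 5.64, 5.50 and 5.32 RPKM at 8 h, against 4.49, 3.08 and 2.70 RPKM at 4 h in WT cells. In both genes the times did not overlap in WT cells. The WT difference was 0.36 ± 0.078 for Pank1, 0.64 ± 0.17 for Gpatch1 and 0.53 ± 0.14 for Smarca2. The EV difference was 0.39 for Pank1, 0.33 for Gpatch1 and 0.35 for Smarca2, in the same direction.

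Other genes of the pathways to which members belong were counted from lists chosen with earlier results known, in HEA against EV over all tested genes. Of the 22 tested Wnt genes other than Frat2, 7 were higher and 3 lower at 8 h, and 9 were higher and 1 lower at 4 h. Sfrp2, a secreted Wnt modulator, averaged 8.40 ± 1.9 RPKM in HEA cells and 0.528 ± 0.12 RPKM in EV cells at 8 h (SD, n = 3 each), a rise of 3.10 ± 0.27 (adjusted p = 1.91e-08). Tcf7, a nuclear effector of Wnt, rose by 1.12 ± 0.15 at 8 h, and Rnf43, which removes Wnt receptors, changed by -1.22 ± 0.17. Of 24 TGF-beta and activin genes, 8 were higher and 5 lower at 8 h, and 7 were higher and 3 lower at 4 h. The ligand Tgfb2 rose by 0.76 ± 0.11 and the receptor Acvr1b changed by -0.98 ± 0.11 at 8 h. Among all tested genes 20.2% were higher and 27.5% lower at 8 h, and 17.7% and 25.5% at 4 h.

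The classical E-box targets of Myc went the other way in HEA cells. Of 30 such genes, none was higher at either time, 16 were lower at 8 h and 21 at 4 h, where 27.5% (8 h) and 25.5% (4 h) of all tested genes were lower. Shmt1, of one-carbon metabolism, averaged 19.0 ± 2.1 RPKM in HEA cells and 36.2 ± 1.3 RPKM in EV cells at 8 h, a change of -0.92 ± 0.087 (adjusted p = 5.89e-08). Rrp9, of ribosome assembly, changed by -0.70 ± 0.073 and Pfas, of purine synthesis, by -0.51 ± 0.052 at 8 h. In the Myc and Max network 3 of 11 genes were higher and 3 lower at 8 h, and 2 and 2 at 4 h. Mycl, a Myc family member, averaged 6.73 ± 1.2 RPKM in HEA cells and 1.24 ± 0.046 RPKM in EV cells at 8 h, a rise of 2.04 ± 0.16 (adjusted p = 4.66e-09), and Mxi1, a Max-binding antagonist of Myc, rose by 0.91 ± 0.12. Mlx, a partner of Myc-like factors, changed by -0.67 ± 0.14.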

How the data were processed

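Total RNA of 3T9 cells was sequenced in 24 libraries with a stranded kit, per the labels' protocols. Per the submitters' processing notes, the genome build was mm9, and the tools listed there, without their order, were featureCounts 1.4.5-p1, DESeq2, SAMtools, TopHat and TopHat2 2.0.8. For the handling of strand in counting, and for the annotation, the sources used here give nothing. What the authors deposited is an RPKM per gene and library, per the file headers. A second deposited table holds the authors' comparisons with EV: log2 fold changes, p-values and a Wald score. Its values are printed only where it is named.

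RPKM are not counts, so the test was limma-trend (limma 3.58.1, R 4.3.3) on log2(RPKM + 0.5), for the 12268 genes that reached 1 RPKM in 3 or more libraries. A single fit of 8 group means over 24 libraries (16 residual degrees of freedom) gave all comparisons, each adjusted by Benjamini-Hochberg over all tested genes at 0.05, and was checked on simulated data. Fold changes on this scale understate low genes. Whole reads were recovered from the steps of the RPKM values for all 21671 genes (100% within 0.01 read), which gave the library totals and a voom alternative. Intervals from these totals would cover counting error only. Figures were drawn with matplotlib 3.10.9, and tables were made in Python 3.11.15 (pandas 2.3.3, numpy 2.4.6, scipy 1.17.1).

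The members and the gene lists were chosen with earlier results of these data known. The named members are the 12 with the largest HEA difference, those called in RA, those with the smallest p between times (which for HEA, WT and EV only picked names) and those nearest the limits of the rule, and of each gene list up to 3 genes. The values of 1 member are not reported here by name. A further few were named after their values were seen, as examples of a role. The labels number libraries 1 to 3 without saying what they share, so p-values measure the spread between these libraries, which may be technical. Other pseudocounts, filters, normalisations, groups in the fit, a replicate block and the removal of single libraries were tried.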

Additional observations from a re-analysis of the deposited data

How the results depend on the processing

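The rule found between 76 and 113 genes under the other settings, 76 with a pseudocount of 1 (64 of them among the 95) and 113 after centring each library on its median (87 among the 95), and 80 to 104 with 1 library left out. The RA calls at 4 h (10) were 6 with no filter, 0 with only the compared groups in the fit, 20 against WT, 3 to 8 with 1 library left out and 13 by voom. Those at 8 h (7) were 11 with only the compared groups, 11 without the 3 libraries that stood apart, 21 against WT, 1 to 4 with 1 library left out and 10 by voom. The RA calls between times (0) were 1 with a pseudocount of 0.1, 2 without the 3 libraries and 0 to 1 with 1 library left out. Planned tests of HEA, WT and EV levels and of the HEA minus EV difference between times are not reported, nor are their alternatives, because the rule used those libraries. Calls of the gene lists over both times (161) ran from 143 to 174. Of 272 values of single genes recomputed, 186 kept their call, 86 lost it and 0 changed sign. After quantile normalisation the RA calls were 4 higher and 3 lower at 8 h, and 6 higher and 4 lower at 4 h. The cause of these shifts was not tested, and a fit with fewer libraries has fewer degrees of freedom.

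Libraries with the same number in 2 groups did not deviate together in all pairs compared (correlations from -0.60 to 0.40), so the main fit did not pair them. Not every pair of groups was compared, and these values cannot exclude a batch shared by libraries of the same number. With a replicate block the counts were 8 for RA at 4 h, 7 for RA at 8 h, 0 for RA between times and 156 for the gene lists. Reads limit the weakest members: 5 of the 95 had under 10 reads on average in the HEA libraries.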

Other observations

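The share of tested genes that were members, 95 of 12268 in all, differed between chromosomes. Chromosome 19 held 11, which is 2.54% of the 433 tested genes there. The next highest shares were 1.31% on chromosome 17 (8 of 610) and 1.28% on chromosome 4 (10 of 780), and none was among the 323 on chromosome 18. This difference was not tested. In the gene order of RefSeq (GRCm38.p6), no pair of members stood next to each other among the tested genes. For 10 members, an adjacent tested gene outside the 95 was also at least 2-fold higher in HEA at both times. The share of all tested genes with such a neighbour was not counted, so nothing is read from this number. Of these neighbours, Frat1 itself meets the rule's values and was left out by name. These neighbours were Dgke beside Nog, Itpk1 beside Mir1936, Mir875 beside Mir599, Cbr3 beside Cbr1, Mir107 beside Pank1, Frat1 beside Frat2, Mir297b beside Mir669m-2, Rnf32 beside Lmbr1, Chst15 beside Gm10584 and Dock6 beside Gm6484. For microRNA genes inside or beside a longer gene, the same RNA may be counted for both.

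Among genes of other pathways, 7 of 21 tested p53 targets were higher and 6 lower in HEA than in EV at 8 h, and 4 were higher and 5 lower at 4 h. Perp, a p53-induced membrane protein, averaged 97.3 ± 1.7 RPKM in HEA cells and 71.4 ± 1.4 RPKM in EV cells at 8 h (SD, n = 3 each). Aen, a p53-induced nuclease, changed by -0.46 ± 0.074 and the death receptor Tnfrsf10b by -0.47 ± 0.072. Of 18 CREB and cAMP response genes, 2 were higher and 7 lower at 8 h, and 0 were higher and 7 lower at 4 h, with Pde4b at -0.76 ± 0.15, Nr4a2 at -0.61 ± 0.15 and Gem at -0.63 ± 0.16 at 8 h (limma, adjusted p = 0.000333 for Pde4b). Of 21 NF-kB and inflammation genes, 5 were higher and 4 lower at 8 h, and 6 and 4 at 4 h. Peli2 and Nfkbie rose by 1.36 ± 0.14 and 1.05 ± 0.12 at 8 h, and Tnfaip2 changed by -1.27 ± 0.15.

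Few markers of other cell types were expressed enough to be tested. Of 10 tested fibroblast markers, 3 were higher and 0 lower in HEA at 8 h, and 2 and 0 at 4 h, with a summed level of 730 to 812 RPKM in HEA libraries and 713 to 723 RPKM in EV libraries at 8 h. The summed level of 10 endothelial markers was 18.7 to 21.2 RPKM in HEA libraries and 5.53 to 7.33 RPKM in EV libraries at 8 h. Flt1, a VEGF receptor, carried that difference with 17.8 ± 1.5 RPKM in HEA cells and 3.23 ± 0.78 RPKM in EV cells, while Eng and Esam did not pass the test. Neuron markers summed to 54.3 to 67.8 RPKM in HEA libraries and 78.9 to 90.2 RPKM in EV libraries at 8 h, with 0 of 4 higher and 3 lower, led by Tubb3 (-0.71 ± 0.14). In muscle markers the single tested gene, Tnnt2, was lower in HEA, with 1.54 ± 0.81 RPKM in HEA cells and 4.79 ± 0.91 RPKM in EV cells. None of the tested epithelial (1), macrophage (3) and adipocyte (2) markers was called at either time, and their part in the results on the 95 genes was not tested.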
